A study of Mus musculus with 2 samples.

Results

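Lipid droplets are stores of neutral lipid in the cytoplasm, surrounded by a single layer of phospholipid and coated with perilipin proteins. The perilipins govern access of lipases to the core, where adipose triglyceride lipase (Pnpla2), hormone-sensitive lipase (Lipe) and monoglyceride lipase (Mgll) remove the fatty acids of a triglyceride in turn. In brain, Mgll is also the main enzyme that breaks down the endocannabinoid 2-arachidonoylglycerol. The genes described here are the 5 perilipins (Plin1 to Plin5) and these 3 lipases, taken by symbol from the deposited expression table, 8 genes of 24229 listed. The family was chosen by name with the ratio of Plin4 between the libraries compared here already known, so all differences between these libraries are given as descriptions.

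RNA sequencing was done on the suprachiasmatic nucleus (SCN), the hypothalamic seat of the central circadian clock, of wild type C57BL/6 mice at postnatal day 68. After 7 days in darkness, 16 mice were divided into a group of 8 held on a short T-cycle (ST) and a group of 8 held on a normal T-cycle (NT), where a T-cycle is a schedule of light and dark with a chosen period. After 4 weeks of entrainment both groups spent 5 days in darkness before the SCN was taken at circadian time 4 h, and 1 polyadenylated RNA library stands for each group. The sources used here do not give the T-cycle periods, nor how many mice each library holds.

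Estimated counts totalled 19476800 for ST and 24790727 for NT. With 1 library a group no spread between animals can be estimated, so no test was made and every difference is one between these libraries. Folds are ratios of counts scaled by median-of-ratios size factors, and each carries a 95% counting interval, which covers counting error only. Genes with a mean scaled count of at least 50 are called measured, 14343 in all. RPKM is the read count divided by gene length and library total. Of the listed SCN markers, the peptide gene Avp was at 656 RPKM in ST and 563 in NT, and Vip at 168 RPKM in ST and 197 in NT. All 8 oligodendrocyte markers, 7 of 8 microglial, 9 of 10 endothelial and mural and 6 of 7 astrocyte markers had an interval below 1. Their median log2 ratios were -0.29, -0.27, -0.33 and -0.15. All 5 measured meningeal fibroblast markers also had one below 1, at a median of -0.94. Of ependymal and tanycyte markers 2 of 5 were below 1, and of SCN markers 2 of 10 were below and 3 above. Over all measured genes, 10.2% had an interval below 1 and 7.79% above. The part of this shift in any result below was not tested. In bulk tissue, fewer cells of a type and less RNA per cell cannot be told apart.

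Plin4 is the one member whose transcript repeats itself, and the repeat is shown here because it bears on how reads of this gene can be counted. Its coding sequence holds a tandem repeat of 99 bases, which codes for the amphipathic stretch by which perilipin 4 binds lipid surfaces. Cut into 99-base units from the start codon, units 5 to 30 formed an unbroken run of 26 units in which each unit equalled the next at 62.6% of bases or more (median 75.8%). The run covers 2574 of 4212 coding bases, 61.1%, in exons 5 and 6 of the 9 exons of the annotated transcript. Units 14 and 15 are the closest pair of neighbours, and unit 13 precedes them. They are given on the minus strand in NCBIM37 (mm9), unit 14 from chr17:56245661-56245759, unit 15 from chr17:56245562-56245660 and unit 13 from chr17:56245760-56245858. Capitals mark bases that differ from unit 14, which are 1 in unit 15 and 22 in unit 13.
Plin4 unit 14: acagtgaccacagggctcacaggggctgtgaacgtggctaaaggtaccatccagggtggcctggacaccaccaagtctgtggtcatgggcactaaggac
Plin4 unit 15: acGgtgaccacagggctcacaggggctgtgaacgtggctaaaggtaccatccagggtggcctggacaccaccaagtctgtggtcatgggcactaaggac
Plin4 unit 13: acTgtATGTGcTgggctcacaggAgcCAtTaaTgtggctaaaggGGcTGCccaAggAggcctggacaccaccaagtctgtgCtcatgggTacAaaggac

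**Figure D1:**
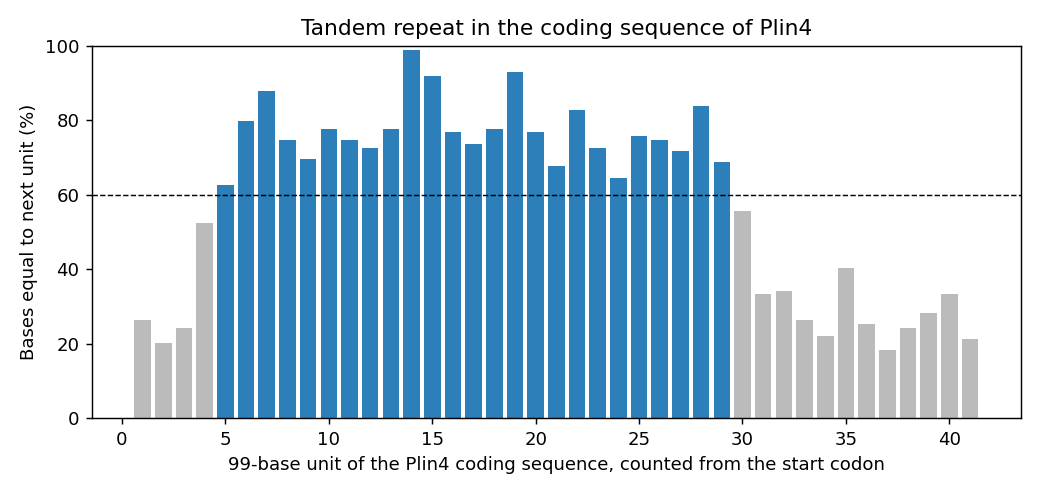
Percentage of bases at which each 99-base unit of the Plin4 coding sequence equals the next unit (bars, y axis) against the number of the unit from the start codon (x axis). Blue bars are at or above the dashed line at 60%, and they fill the stretch whose first bar is unit 5, with the highest bar at unit 14, which differs from the next unit by 1 base.

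Of the 5706 windows of 50 bases in the Plin4 transcript, 995 (17.4%) occur more than once within it. The longest transcripts of the other 7 members hold no such window. Among 22717 genes with an annotated protein-coding transcript, 65 (0.286%) reached the Plin4 share, and 4.24% held any repeated window. No 50-base window of Plin4 occurred in a protein-coding transcript of another gene, whereas 29 windows of Plin3 did, and 121 windows of Lipe occurred in 4732471J01Rik. Reads from those windows of Plin3 and Lipe cannot be assigned by sequence alone. The other 5 members had no such window in protein-coding transcripts of other genes, and transcripts of other kinds were not searched. A read from a repeated window of Plin4 has several places within Plin4. The sources used here give neither the read length nor how such reads were counted, so the level of Plin4 is uncertain to that extent.

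The perilipins differed widely in level. Plin3, the broadly expressed perilipin also known as TIP47, was the most abundant per length, at 8.38 RPKM in ST and 9.71 in NT. Plin2, the ubiquitous coat that accumulates with droplets, was at 2.85 RPKM in ST and 2.96 in NT. Plin4, best known from adipocytes and muscle, was at 2.77 RPKM in ST (2.47 to 3.10) and at 1.11 in NT (0.938 to 1.30). Plin5, which tethers droplets to mitochondria in oxidative tissues, was at 2.23 RPKM in ST and 1.89 in NT. Plin1, the main coat of adipocyte droplets, had 1 count in ST and 2 in NT, under the limit of 3 counts that a count of 0 allows, and was the only member not measured.

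By deposited RPKM, the lower perilipins could be ordered in NT but not in ST. In ST the RPKM interval of Plin4 overlapped those of Plin2 (2.46 to 3.28) and Plin5 (1.79 to 2.74), so these 3 were not ordered. In NT the interval of Plin4 lay wholly below that of Plin5 (1.53 to 2.31), which in turn lay below that of Plin2 (2.61 to 3.35). Among all listed genes, 49.6% had a lower RPKM than Plin4 in ST, against 38.9% in NT.

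Among the lipases, Pnpla2 stood at 16.3 RPKM in ST and 15.8 in NT, Mgll at 9.77 in ST and 11.9 in NT, and Lipe at 3.01 in ST and 3.03 in NT. The RPKM of Pnpla2 implies a gene length of 1.95 kb, whereas its annotated exons together span 3020 bases. With that length Pnpla2 would be at 10.6 RPKM in ST and 10.2 in NT, above Mgll in ST but below it in NT (9.74 in ST and 11.9 in NT by the same rule), so the order of these lipases rests on the length used. For Plin4 the implied length was 5.62 kb, against 5755 bases of annotated exon. For Plin2 it was 3.50 kb, against 3512 bases of annotated exon but 1888 bases in its longest protein-coding transcript. The RPKM of Plin2 and its place among the perilipins therefore also rest on the length used.

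**Figure D2:**
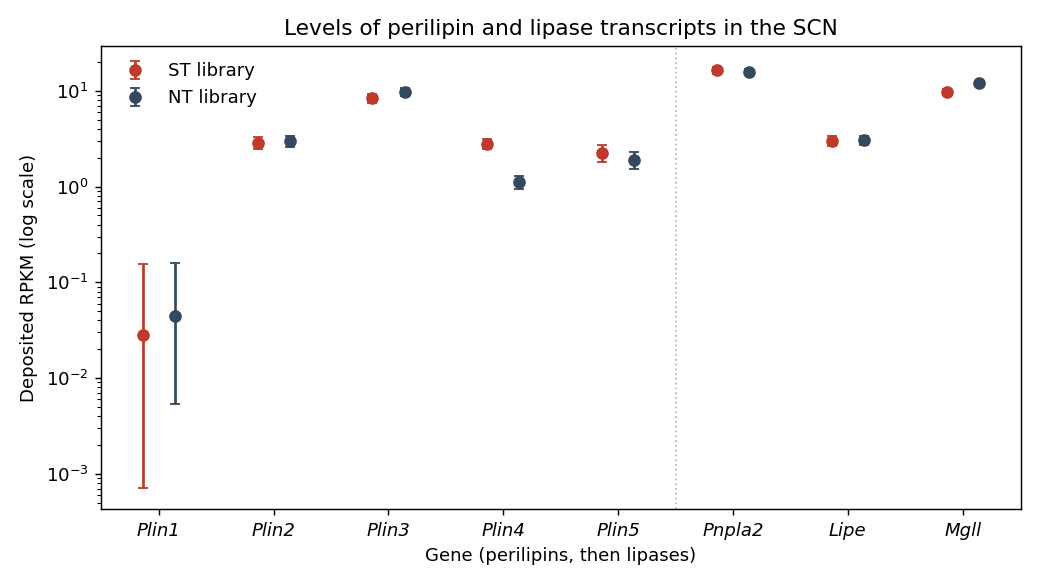
Deposited RPKM (log y axis) of the 5 perilipins and 3 lipases (x axis) in the ST library (red, left) and the NT library (dark blue, right), with exact Poisson 95% counting intervals as bars. The bars of the 2 libraries do not overlap for Plin4, at 2.77 RPKM in ST and 1.11 in NT, nor for Mgll, at 9.77 RPKM in ST and 11.9 in NT, while Plin1 lies near 0.03 to 0.04 RPKM with bars that span its counting error.

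Plin4 had 303 counts in ST, against 154 in NT. Divided by the size factors these were 340 in ST and 137 in NT, a ratio of 2.48 (interval 2.04 to 3.03, log2 ratio 1.31). No other measured gene of the 14343 had a higher ratio, and among the next below it were the orphan receptor Gpr6 at 2.01 and the zinc finger gene Insm2 at 1.98. Plin4 was the only member at least 2-fold apart, and 0 members were at least 2-fold lower. Of all measured genes, 0.0209% reached a ratio of 2 and 0.23% were lower by as much, and nothing is read from these counts.

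The remaining coats had ratios closer to 1. Plin3 had 350 counts in ST and 516 in NT, which is 393 in ST and 459 in NT after scaling, a ratio of 0.856 (0.745 to 0.982). Plin2 had 194 counts in ST and 257 in NT, a ratio of 0.953 (0.787 to 1.15). Plin5 had 88 counts in ST and 95 in NT, a ratio of 1.17 (0.865 to 1.58). Of these 3, Plin3 alone had an interval that excluded 1. The ratio of the summed scaled counts of the 4 coats other than Plin4 was 0.918 (0.828 to 1.02), and with Plin4 included it was 1.15 (1.05 to 1.26).

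Plin4 thus made up a different share of perilipin transcripts. It took 32.4% of perilipin counts in ST (29.4 to 35.5, exact Clopper-Pearson 95% interval), against 15.0% in NT (12.9 to 17.4). Per length, its share of summed perilipin RPKM was 17.0% in ST and 7.05% in NT. Plin3 took 51.6% of that sum in ST and 61.8% in NT, and Plin2 17.5% in ST and 18.9% in NT. Plin3 was the largest component in both libraries.

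The lipases lay closer together. Mgll had 923 counts in ST and 1436 in NT, or 1037 in ST and 1278 in NT after scaling, a ratio of 0.811 (0.746 to 0.882). Pnpla2 had 621 counts in ST and 763 in NT, a ratio of 1.03 (0.922 to 1.14). Lipe had 261 counts in ST and 335 in NT, a ratio of 0.983 (0.833 to 1.16). Mgll was the only lipase with an interval that excluded 1. Beside the lower values of Mgll and Plin3, oligodendrocyte markers summed to 105400 scaled counts in ST and 131200 in NT, astrocyte markers to 70120 in ST and 75010 in NT, and microglial markers to 5894 in ST and 6946 in NT. Their part in these ratios was not tested. The summed counts of the 3 lipases gave a ratio of 0.899 (0.846 to 0.955). Of the 7 measured members, 1 had an interval above 1 and 2 had one below, against 7.79% above and 10.2% below among all measured genes, and nothing is read from this. The median log2 ratio of the measured members was -0.02, against 0.00 over all measured genes.

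**Figure D3:**
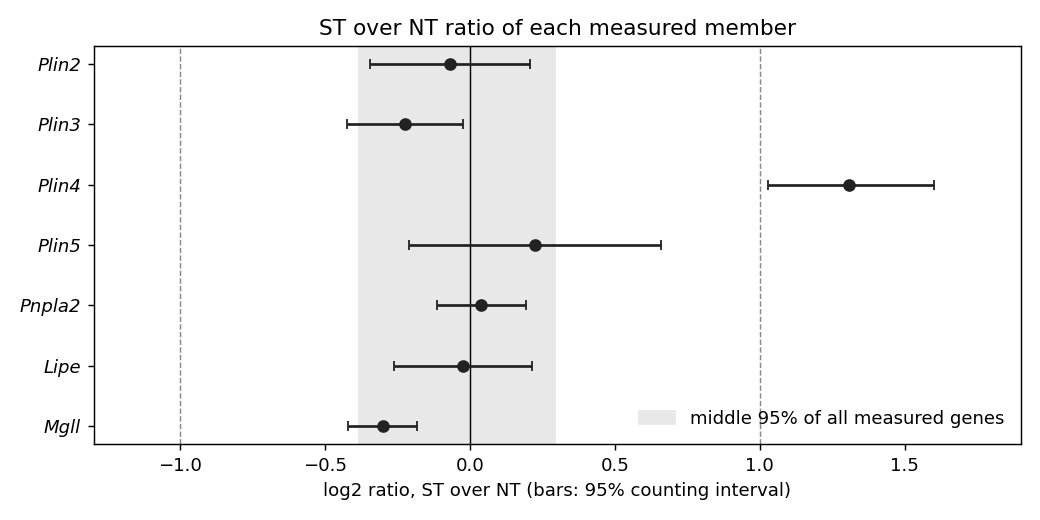
The log2 ratio of the ST over the NT library (x axis) for the 7 measured members (y axis), with 95% counting intervals as bars, dashed lines at 2-fold and grey shading over the middle 95% of all measured genes (-0.38 to 0.29). Plin4 at 1.31 lies outside the shading with its whole bar beyond 2-fold, and the other 6 points lie within it.

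The authors' deposited table lists Plin4 with a fold change of 2.48 and an adjusted p of 2.72e-08. For Mgll the authors' deposited table lists an unadjusted p of 0.0341 and for Plin3 one of 0.202. All members other than Plin4 carry an adjusted p of 1 in that table of the authors. At an adjusted p of 0.05, the authors' deposited table calls 0.0413% of its genes higher and 0.161% lower. Those p-values rest on a single library for each condition.

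Members lie on 4 chromosomes, and 3 of them have fractional counts, as when a read is divided between overlapping genes. In mm9 coordinates, Plin4 (ENSMUSG00000002831) occupies chromosome 17 from 56240017 to 56249011 on the minus strand, and Plin5 (ENSMUSG00000011305) starts 2013 bases beyond it, from 56251024 to 56256971 on the same strand. Plin3 (ENSMUSG00000024197) lies further along chromosome 17, from 56418392 to 56429934. Plin1, Lipe and Pnpla2 are on chromosome 7, Plin2 on chromosome 4 and Mgll on chromosome 6.

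The 3 fractional counts could be traced to overlapping genes. Plin4 overlaps the end of the growth factor-related gene Hdgfrp2, on the other strand, by 3 bases. It had a whole count of 303 in ST, and in NT its 154.137 and the 2107.863 of Hdgfrp2 add up to 2262. Lipe overlaps 4732471J01Rik on the other strand, with 264 bases of shared exon, and the pair sums to 275 counts in ST and 355 in NT. Mgll overlaps AC153860.1 on the other strand by 90 bases, and that pair sums to 958 in ST and 1485 in NT. With the whole count of the partner added, the ratio was 0.978 (0.832 to 1.15) for Lipe and 0.814 (0.750 to 0.884) for Mgll. For Plin4 with Hdgfrp2 it was 1.15 (1.08 to 1.22), a sum in which Hdgfrp2 holds 1755 of 2058 counts in ST and 2108 of 2262 in NT.

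Genes around Plin4 had ratios near 1. Hdgfrp2 had 1755 counts in ST and 2108 in NT, a ratio of 1.05 (0.986 to 1.12). On the upstream side, beyond Plin5, the semaphorin Sema6b had 1797 counts in ST and 2161 in NT, a ratio of 1.05 (0.985 to 1.12). Of the 10 measured genes within 100 kb of Plin4, 0 were 2-fold apart in either direction, and log2 ratios ran from -0.04 to 0.28. Over all measured genes only 0.0209% were at least 2-fold higher and 0.23% at least 2-fold lower, so nothing is read from that count. The nearest gene upstream of Plin5, Lrg1, had 3 counts in ST and 7 in NT and was not measured.

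**Figure D4:**
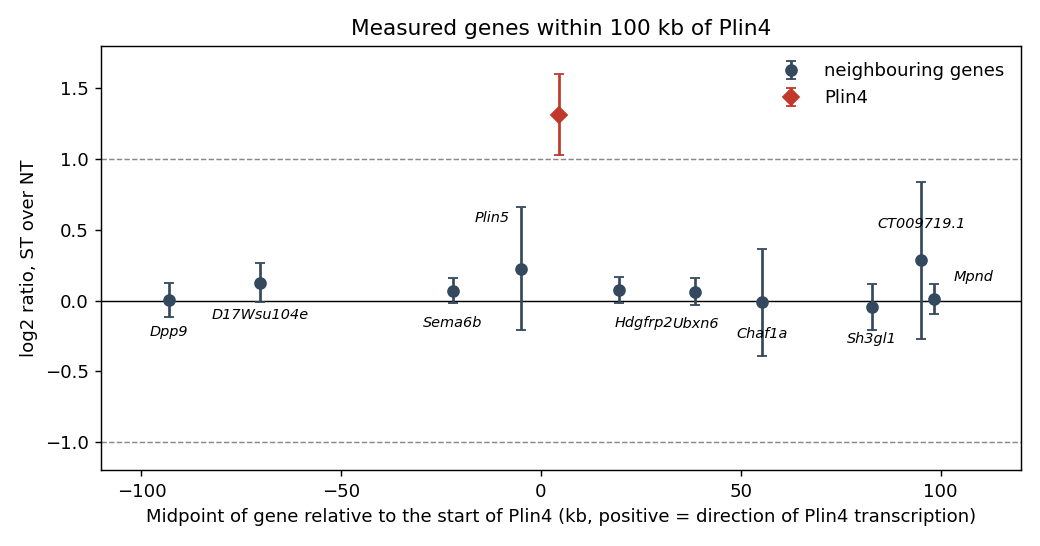
The log2 ratio of the ST over the NT library (y axis) for Plin4 (red diamond) and the 10 measured genes within 100 kb (dark blue circles), placed by the distance of each gene's midpoint from the start of Plin4 (x axis, kb), with 95% counting intervals and dashed lines at 2-fold. Plin4 is at 1.31, and its neighbours lie between -0.04 and 0.28 with every interval crossing 0.

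Promoters of the neighbours Plin4 and Plin5 are shown because these adjacent genes had unlike ratios. Promoter windows of RefSeq (GRCm38.p6), 250 bases before to 50 after a start, were found for all 8 members, 11 windows in all. TATAA, searched on both strands, was present in the windows of Plin4 (from -32 to -28) and of 1 of the 2 starts of Plin5 (from -27 to -23), among 24.9% of 32851 windows of the genome. The RefSeq gene of Plin4 reaches 166 bases upstream of the start used here, and that of Plin5 58 bases. The stretch printed for Plin4 thus lies within its annotated gene. The 100 bases before these starts are on the minus strand of chr17:56109783-56109882 for Plin4 and chr17:56117549-56117648 for Plin5 in GRCm38.p6. They read as follows, with TATAA in capitals.
Plin4 promoter: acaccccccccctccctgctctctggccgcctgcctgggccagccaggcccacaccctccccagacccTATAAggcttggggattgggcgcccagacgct
Plin5 promoter: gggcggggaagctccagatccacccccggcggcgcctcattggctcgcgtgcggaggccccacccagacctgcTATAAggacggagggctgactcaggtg
The CCAAT box (CCAAT, 37.4% of windows) was found for Plin2, Plin3, Plin4 and Plin5. The E-box CACGTG (7.15%) was found for Plin2, Lipe and Mgll, and the forkhead site TGTTTAC (3.65%) for Lipe and Mgll. The cAMP response element TGACGTCA (1.79%) and the consensus letters of the glucocorticoid response element (0.00913%) and of the PPAR direct repeat (0.0396%) were found in no window of the 8 members. None of these motifs contains another, and a match or its lack describes only the letters in these windows.

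Other proteins of the lipid droplet lay near a ratio of 1. Of 24 listed genes 20 were measured, with a median log2 ratio of -0.05. Of these 20, 1 had an interval above 1 and 2 one below. Over all measured genes the shares were 7.79% above and 10.2% below, and nothing is read from these counts. With total-count scaling 1 was above and 1 below. Mettl7a1, a droplet protein, had a ratio of 1.12 (1.02 to 1.22). Rab18, a GTPase of the droplet surface, was at 0.914 (0.871 to 0.958), and Pcyt1a, which makes phosphatidylcholine for growing droplets, at 0.912 (0.838 to 0.992). Seipin (Bscl2), which shapes nascent droplets, was the most abundant of the list at 80.7 RPKM in ST and 77.6 in NT, a ratio of 1.03 (0.974 to 1.09). G0s2, an inhibitor of Pnpla2, had 56 counts in ST and 78 in NT, a ratio of 0.906 (0.631 to 1.29). Abhd5, the co-activator of Pnpla2, had 384 counts in ST and 519 in NT, a ratio of 0.934 (0.816 to 1.07).

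In triglyceride and sterol ester synthesis, 12 of 18 genes were measured, with a median log2 ratio of -0.03. Of these, 0 had an interval above 1 and 5 one below, 41.7% against 10.2% of all measured genes. With total-count scaling 1 was above and 4 were below. Intervals narrow as counts rise, and neither this list nor the others were matched to all measured genes in counts. Gpam, the mitochondrial enzyme of the first acylation of glycerol 3-phosphate, had 1330 counts in ST and 2015 in NT, a ratio of 0.833 (0.777 to 0.893). Soat1, which esterifies cholesterol, was at 0.875 (0.779 to 0.983), and Dgat1, which makes triglyceride from diglyceride, at 0.896 (0.804 to 0.997). The acyltransferases Agpat3 and Agpat5 were at 0.924 (0.890 to 0.960) and 0.912 (0.858 to 0.970). Agpat9, another glycerol 3-phosphate acyltransferase, was at 1.13 (0.871 to 1.46), and Agpat1, the most abundant, at 1.02 (0.969 to 1.08).

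The median log2 ratio of 12 measured lipases outside the family was -0.02. Among them 0 had an interval above 1 and 2 had one below, 16.7% against 10.2% of all measured genes. These were Nceh1, a cholesterol ester hydrolase, at 0.876 (0.832 to 0.923) and the phospholipase Ddhd1 at 0.929 (0.872 to 0.988). Lipoprotein lipase (Lpl) was at 0.830 (0.635 to 1.08), Pnpla7 at 1.10 (0.994 to 1.22), and the abundant Abhd12, which also hydrolyses 2-arachidonoylglycerol, at 0.989 (0.947 to 1.03). In the endocannabinoid list of 11 measured genes, 1 interval was above 1 and 1 below, 9.09% each. Over all measured genes these shares were 7.79% above and 10.2% below. The cannabinoid receptor Cnr1 was at 1.09 (1.02 to 1.17), Abhd4 at 0.906 (0.856 to 0.959) and the abundant Gde1 at 1.03 (0.976 to 1.08). Dagla, which makes 2-arachidonoylglycerol, was at 1.04 (0.955 to 1.13). Faah, which breaks down anandamide, had a log2 ratio of -0.13 (-0.26 to 0.01). Mgll, at a ratio of 0.811 (0.746 to 0.882), was further from 1 than each of these. Its interval overlapped those of Lpl, Nceh1, Ddhd1, Abhd4 and Faah.

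Of 13 measured genes of fatty acid uptake, binding and activation, 1 had an interval above 1 and 3 below. That is 7.69% above and 23.1% below, against 7.79% and 10.2% of all measured genes. The transporter and acyl-CoA synthetase Slc27a2 was at 1.16 (1.01 to 1.33). The acyl-CoA synthetases Acsl6, Acsl3 and Acsbg1 were at 0.904 (0.872 to 0.937), 0.963 (0.931 to 0.997) and 0.951 (0.913 to 0.991). The binding proteins Fabp3 and Fabp5 were at 0.834 (0.678 to 1.02) and 0.942 (0.845 to 1.05), and the abundant acyl-CoA binding protein Dbi at 1.01 (0.971 to 1.05). Of 25 measured genes of fatty acid oxidation and PPAR signalling, 4 had an interval above 1 and 1 below, with a median log2 ratio of -0.02. That is 16.0% above and 4.0% below, against 7.79% and 10.2% of all measured genes. With a filter at 200 mean scaled counts, 2 were above. Angptl4, an inhibitor of lipoprotein lipase and a target of PPARs, had 99 counts in ST and 82 in NT, a ratio of 1.52 (1.13 to 2.07). Cpt1b, the muscle form of the transferase that admits fatty acids to mitochondria, was at 1.38 (1.05 to 1.82), and the liver form Cpt1a at 0.830 (0.727 to 0.948). Acadvl, an acyl-CoA dehydrogenase, also had an interval above 1, at a ratio of 1.08.

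Among 12 measured hormonal regulators of lipolysis, 6 had a positive and 6 a negative log2 ratio, with 1 interval above 1 and 1 below. Each is 8.33% of the measured list, against 7.79% above and 10.2% below over all measured genes. The insulin receptor substrate Irs2 had a log2 ratio of 0.27 (0.15 to 0.39), and Irs1 was at a ratio of 1.09 (0.962 to 1.24). The beta-1 adrenergic receptor Adrb1 was at 0.806 (0.545 to 1.18) and the natriuretic peptide receptor Npr1 at 0.839 (0.642 to 1.09). The protein kinase A subunits Prkacb and Prkar1a were at 0.977 (0.957 to 0.998) and 0.986.

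Glucocorticoid-responsive genes were listed because Plin4 is itself known to respond to glucocorticoids in rodent brain. Of 15 measured genes, 8 had an interval above 1, 53.3% against 7.79% of all measured genes, and 0 one below, with a median log2 ratio of 0.12. Sult1a1, a phenol sulfotransferase, had 141 counts in ST and 96 in NT, a ratio of 1.85 (1.42 to 2.43). Cdkn1a, the cell-cycle inhibitor p21, had 210 counts in ST and 146 in NT, a ratio of 1.82 (1.46 to 2.26). The transcription factor Zbtb16 was at 1.72 (1.43 to 2.07), and Fkbp5, a co-chaperone of the glucocorticoid receptor, at 1.39 (1.26 to 1.54). The abundant metallothionein Mt1 was at 1.02 (0.977 to 1.07). These first 4 genes and Per1 were known to be higher when the list was drawn up, so its count is not independent of the data. Without those 5, 3 of 10 genes (30.0%) had an interval above 1 and 0 below, and the median log2 ratio was 0.09. The share above 1 over all measured genes was 7.79%. These 10 genes were also listed with earlier results of these data known, so their count is not independent either. Any part of glucocorticoids in the level of Plin4 was not tested.

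**Figure D5:**
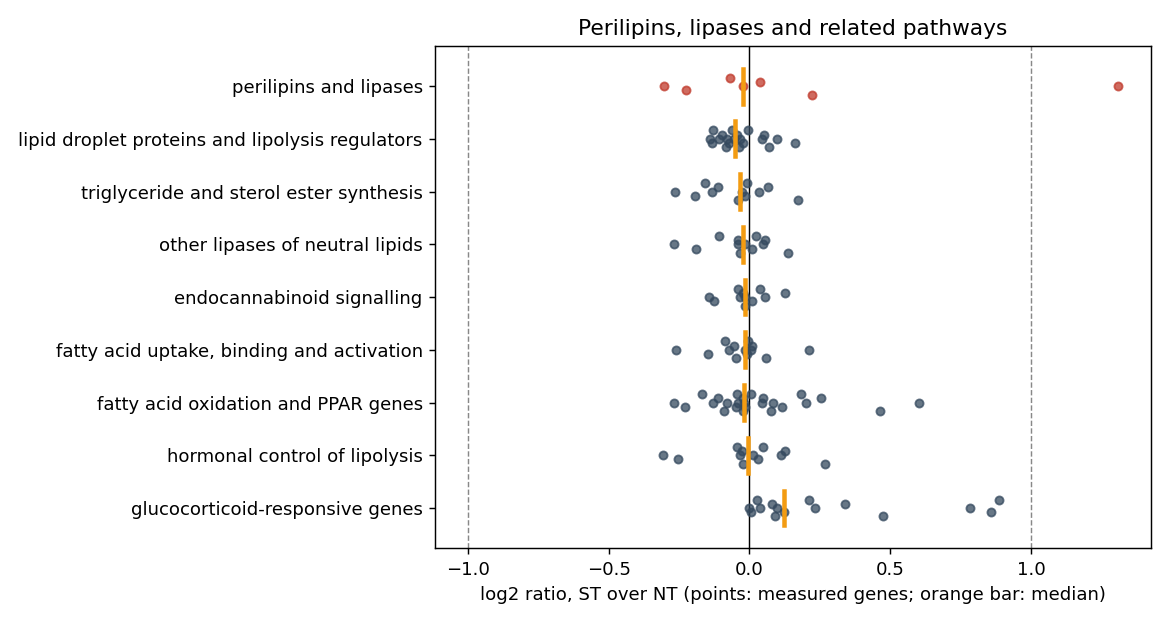
The log2 ratio of the ST over the NT library (x axis) for the measured perilipins and lipases (red, top row) and the measured genes of 8 related lists (dark blue, rows), with the median of each row as an orange bar and dashed lines at 2-fold. Plin4 at 1.31 is the single point beyond 2-fold, and the medians lie between -0.05 and 0.12.

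Most adipocyte transcripts were near the limit of detection in both libraries. Of 12 markers, 9 were found among the listed genes and 1 was measured, Cidea, with 86 counts in ST and 115 in NT (0.705 to 1.26), a gene that shares reads with others. Retn had 2 counts in ST and 2 in NT, Cidec 2 in ST and 3 in NT, and Aqp7 3 in ST and 7 in NT. Fabp4 had 0 counts in ST and 1 in NT, Pck1 0 in ST and 2 in NT, and Ucp1 3 in ST and 0 in NT. Tusc5 had 14 counts in ST and 16 in NT, and Acvr1c 30 in ST and 37 in NT. The summed scaled counts of the list were 157 in ST and 163 in NT. Adipoq, Lep and Cfd were not found among the listed genes by symbol, Ensembl ID or older symbol, so no level is given for them. The part of adipocyte RNA in the level of Plin4 was not tested.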

How the data were processed

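Polyadenylated RNA of the SCN was sequenced in 1 library for ST and 1 for NT. Tools and build in the submitters' processing notes are TopHat 1.2, CASAVA 1.8.2 and DESeq on mm9, without their roles. Per the file headers, the authors deposited estimated counts per gene (RC), RPKM values, RPM values, plain and adjusted p-values, and a fold change with its log2. The 3 columns that average libraries went unused. No source used here names the counter.

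Estimated counts were rounded, then divided by size factors from the median of ratios (ST 0.89, NT 1.12). A pseudocount of 0.5 entered log2 ratios but not folds. Fold intervals are exact Clopper-Pearson 95% intervals and RPKM intervals exact Poisson ones, and both cover counting error only. Genes with a mean scaled count of 50 or more count as measured. RPM gave the gene lengths and the RPKM by exon length. Listed genes were matched by symbol, Ensembl ID or older symbol, and 23161 IDs were found in GENCODE vM1. Repeats were searched in its transcripts and promoters in RefSeq windows.

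The members and all lists were chosen with earlier results of these data known. Genes named are all members, from each pathway list up to 4 measured genes with the largest absolute log2 ratio and the most abundant one, from each marker list the 2 most abundant, every adipocyte marker, all genes overlapping or adjacent to a member, and the 3 genes after Plin4 in the order of ratios. A few genes that this rule takes are not reported here. Abhd5, Agpat3, Agpat5, Acsl3, Acsbg1, Acadvl, Prkacb, Sema6b and Per1 were added after their values were seen. Tried as alternatives were total-count scaling, TMM (edgeR 4.0.16), mean-count filters at 10 or at 200, 5 as pseudocount, rules of 1.5-fold or 3-fold, and RPKM ratios. The calculations were tested on simulated data (Python 3.11.15, scipy 1.17.1).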

Additional observations from a re-analysis of the deposited data

How the results depend on the processing

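No paired analysis was possible because ST and NT had a single library each, so none could be left out either. Of 34 recomputed log2 ratios of members, 34 stayed within their counting interval, and that of Plin4 ran from 1.28 to 1.32. The number of members at least 2-fold higher, 1, was 0 with a 3-fold rule and 0 without Plin4, a choice made, like the sums of Lipe and Mgll with their overlapping genes, after the data had been seen. The other 22 counts of members were within 1.5 times. Scaling by total counts changed the ratio of the scaling factors by 0.0122 on the log2 scale, and the pseudocount made the move of low-count genes smaller, as for Plin1 with -0.49 as reported and -0.48 with total counts. Of 252 recomputed counts within lists 242 were within 1.5 times. The other 10 comprised 6 under total-count scaling, each a shift of 1 gene, and 4 with a filter of 200. All 79 list medians moved by less than the median counting error of their genes. Depth limits Plin5 most among measured members, with a fold between 0.865 and 1.58.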

Other observations

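Genes next to the other members were given by the same rule. Beside Plin1, Pex11a had a ratio of 1.15 (0.977 to 1.35), and the Kif7 entry on its other side had 5 counts in ST and 4 in NT. Beside Plin2, Dennd4c was at 0.987 (0.896 to 1.09), and AL824707.1 had 0 counts in ST and 1 in NT. Beside Plin3, Ticam1 was at 0.977 (0.757 to 1.26), and Uhrf1 had 28 counts in ST and 32 in NT. Beside Pnpla2, Rplp2 was at 1.11 (0.969 to 1.28), and Efcab4a had 30 counts in ST and 55 in NT. Beside Lipe, AC162443.1 was at 0.926 (0.747 to 1.14). Beside Mgll, Abtb1 was at 1.02 (0.900 to 1.15), and Klhdc6 had 4 counts in ST and 2 in NT. Below Plin4, beyond Hdgfrp2, Ubxn6 was at 1.04 (0.976 to 1.12). The 5 measured genes within 100 kb of Mgll had log2 ratios of 0.03 to 0.35, against -0.30 for Mgll itself. Each of those 5 had an interval that held 1, and the highest, Mcm2, was at a ratio of 1.27 (0.973 to 1.67).

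Abundant markers of other cell types had these ratios. Oligodendrocyte Mbp was at 0.793, astrocyte Gfap at 0.874 and Slc1a3 at 0.971, microglial C1qa at 0.828, and vascular Rgs5 at 0.802 and Cldn5 at 0.784. Meningeal fibroblast markers had a median log2 ratio of -0.94 over 5 measured genes, with Igf2 at a ratio of 0.507 (0.456 to 0.562) and Dcn at 0.636 (0.516 to 0.780). Ependymal and tanycyte markers had a median log2 ratio of -0.02, with Ccdc153 at 0.987 (0.898 to 1.09) and Rarres2 at 0.922 (0.851 to 0.998). SCN markers had a median of -0.07, with 3 intervals above 1 and 2 below among 10 genes. That is 30.0% above and 20.0% below, against 7.79% and 10.2% of all measured genes.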
